A study of Homo sapiens with 5 samples.

Results

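Interferon response and RNA sensing genes were examined in MHH-ES-1 cells after transfection with short RNA duplexes. The set holds 38 named genes and was fixed by name, from knowledge of the pathway, but with earlier results of these data known. Of these, 37 had at least 1 probe set of their own, out of 19775 genes with one on the array. The expression of STAT2 was not analysed here. All 60 probe sets listed for the 37 genes alone were taken, and 2 further probe sets were shared, 1 by IFITM1 and IFITM2 and 1 by IRF9 and RNF31.

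MHH-ES-1 is an established human Ewing sarcoma line. Cells received a synthetic microRNA mimic, a short RNA duplex, with a lipid transfection reagent at 50 nM, and RNA was taken 48 h later and hybridised to Affymetrix 3' expression arrays. The duplex carried miR-483-5p (2 arrays), a scrambled control sequence (2 arrays) or miR-483-3p (1 array). Every array thus comes from transfected cells. No untransfected cells are among the samples, so what transfection or a duplex does in itself cannot be told apart from the resting level, and each difference given is between 1 duplex and another. In each pair the labels describe the second array as a repeat, without naming a separate culture, so the p-values speak of array-to-array spread alone, and that may be of technical origin. Bulk signals cannot tell fewer expressing cells from less RNA per cell.

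Double-stranded RNA is sensed in the cytosol by IFIH1 (MDA5), which signals through MAVS at mitochondria, and in endosomes by TLR3. Both routes activate IRF3 and IRF7, which induce type I interferon. Secreted interferon acts through a receptor and a complex of STAT proteins with IRF9, which binds the interferon stimulated response element and switches on effectors such as the IFIT, OAS, MX and IFITM genes. EIF2AK2 (PKR) and the OAS enzymes are themselves triggered by double-stranded RNA, and ADAR edits such RNA and lowers its sensing.

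The core of the interferon stimulated response element was present in most promoters of the set. It was searched for as GAAA, any 2 bases and GAAA again. On either strand of 250 bases before to 50 bases after each gene start, it occurred in 22 of the 30 members found in the RefSeq promoter table of GRCh38.p14 (73.3%). The share was 37.9% (33 of 87) in the wider pathway list described at the end, and 1195 of all 27305 genes of that table held it (4.38%). In 15 of the 22 it occurred more than once in a single promoter. The gamma activated sequence TTCNNNGAA, which reads the same on both strands, occurred in 11 of the 30 (36.7%) and in 2560 of all genes (9.38%). Matches to both motifs overlapped in 4 of the 30. OAS1, MAVS, ADAR, STAT2, IRF1, IRF9, IFI35 and PSMB9 held no core in this window. IFIT2, OAS2, OASL, IRF3, IRF7, IFITM2, MX2 and USP18 are not in the table. These are matches of letters, not measured binding sites.

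Stretches of 60 bases before the gene start are shown for genes on which the results turn and for IFIT1 and B2M. Each stretch is written 5' to 3' on the plus strand, on which all 8 genes lie. Capitals mark the core, in either orientation, and overlapping cores run together. The positions in GRCh38.p14 are chr1:1013362-1013421 for ISG15, chr1:78649729-78649788 for IFI44, chr1:78620350-78620409 for IFI44L and chr14:94110610-94110669 for IFI27. Those of the others are chr11:313975-314034 for IFITM1, chr10:89332432-89332491 for IFIT3, chr10:89392489-89392548 for IFIT1 and chr15:44711351-44711410 for B2M.
ISG15: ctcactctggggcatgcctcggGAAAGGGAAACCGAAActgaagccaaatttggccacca
IFI44: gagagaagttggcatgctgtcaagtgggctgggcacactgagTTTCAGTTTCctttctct
IFI44L: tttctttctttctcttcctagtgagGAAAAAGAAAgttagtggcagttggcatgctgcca
IFI27: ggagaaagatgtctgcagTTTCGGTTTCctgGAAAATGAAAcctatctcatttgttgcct
IFITM1: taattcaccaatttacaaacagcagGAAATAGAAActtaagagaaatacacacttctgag
IFIT3: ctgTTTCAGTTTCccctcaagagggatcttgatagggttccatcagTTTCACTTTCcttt
IFIT1: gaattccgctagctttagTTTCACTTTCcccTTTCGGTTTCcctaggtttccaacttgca
B2M: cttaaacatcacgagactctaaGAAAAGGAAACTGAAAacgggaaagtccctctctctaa

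Cell type markers were set against the filter signal, which is no test of identity. All 9 Ewing sarcoma markers measured, among them CD99 and NKX2-2, reached the filter signal of 27.2 in every array. The leukocyte marker PTPRC stayed under it in all its probe sets and arrays, and none of the 4 epithelial markers reached it in every array. Of the other leukocyte, plasmacytoid dendritic cell and endothelial markers, ITGAM, TCF4 and PECAM1 reached it in every array. LILRA4 reached it in 4 arrays, and CD3E, EPCAM and CDH5 in 2 each. Median probe set signals were 39.2 to 44.9.

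By their range over the 5 arrays, interferon response and RNA sensing genes varied no more than other genes did. Values are linear probe set signals, and a gene is described by its brightest probe set unless another is named. Of the 37 genes, 36 passed the filter, which asks for a mean log2 signal at or above the 40th percentile of all probe sets, and 32 of these reached its signal of 27.2 in all 5 arrays. In 22 of the 36 (61.1%) the highest array was less than 1.5 times the lowest, as in 55.9% of all genes tested. In 3 (IFI27, IFI44L and PSMB9, 8.33%) it was more than 2 times the lowest, as in 17.2% of all genes. Signals of different probe sets do not compare, since each binds its target with its own strength, so a gene is set only against itself. Without detection calls, the distance of a dim signal from background is not known.

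**Figure D1:**
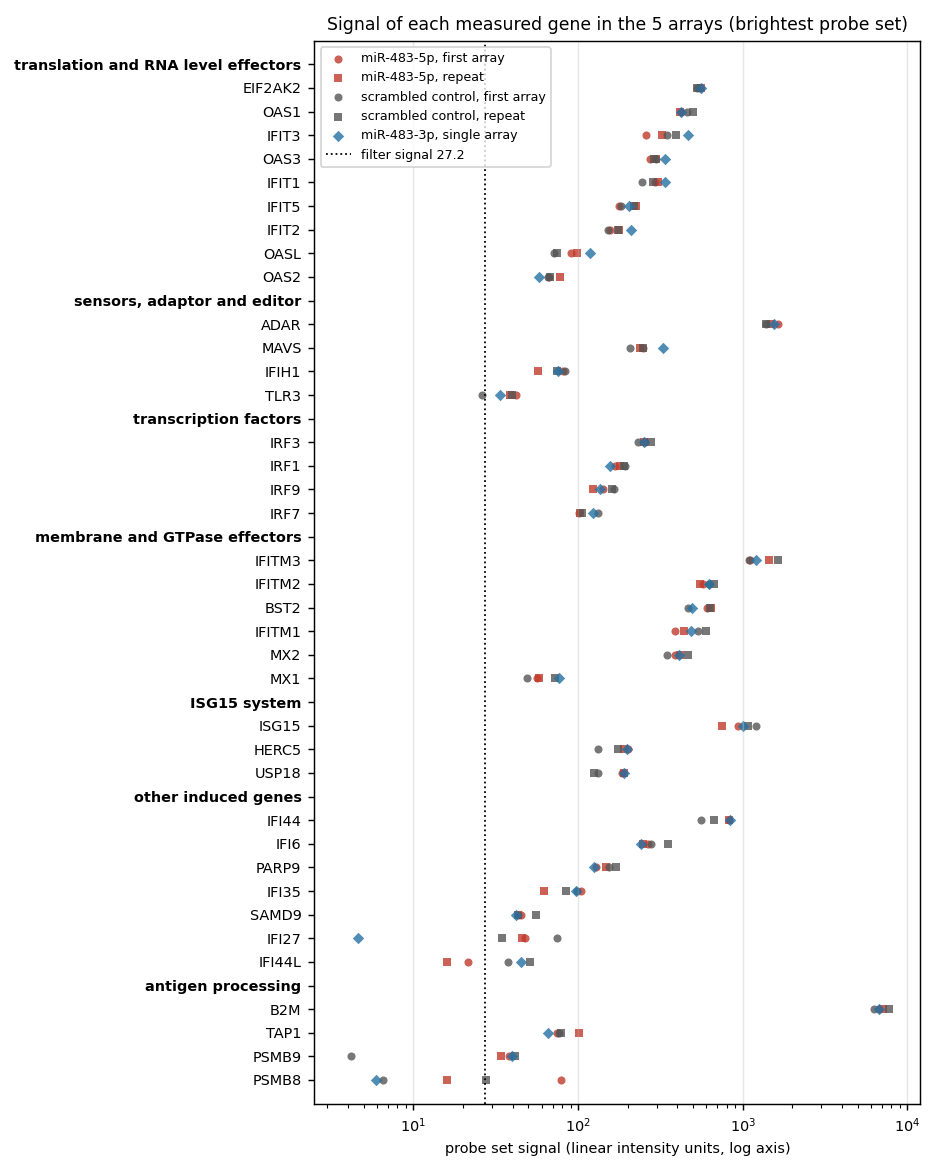
Signal of the 37 measured genes in each of the 5 arrays, grouped by role, on a log axis in linear intensity units, with the filter signal of 27.2 as a dotted line. For most genes the 5 points nearly coincide, while TLR3, IFI27, IFI44L, PSMB9 and PSMB8 have points on both sides of the line.

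Of the 4 sensor, adaptor and editor genes none had an unadjusted p under 0.05 after miR-483-5p (10.7% of all genes tested), and MAVS had one after miR-483-3p (6.56% of all genes), shares that say nothing particular of so few genes. IFIH1, which recognises long duplexes, had signals of 80.9 and 57.2 after miR-483-5p, 82.9 and 74.3 in the control and 76.0 after miR-483-3p, so that the arrays overlapped. Its second probe set past the filter gave 25.9 and 57.0, then 56.0 and 70.7, then 36.4, and the third stayed under 27.2 in every array. TLR3, the endosomal receptor, was dim, at 42.1 and 38.5, then 26.1 and 39.7, then 33.8 in the same order of groups. The first control array alone lay under the filter signal. The other TLR3 probe set past the filter gave log2 differences of 0.15 and -0.23. EIF2AK2, the kinase that halts translation on binding duplex RNA, had 553.2 and 555.0 after miR-483-5p, 526.2 and 526.0 in the control and 556.8 after miR-483-3p. These differences of 0.07 and 0.08 on the log2(signal + 32) scale had 95% intervals of -0.25 to 0.39 and -0.32 to 0.47, and its other 2 probe sets gave -0.05 and -0.13, and -0.17 and 0.01.

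ADAR, the RNA editing enzyme, had signals of 1649.0 and 1490.1 after miR-483-5p, 1384.8 and 1386.2 in the control and 1539.9 after miR-483-3p. All 3 arrays of the miR-483 mimics lay above both controls, an arrangement whose share over all genes was not counted, here or below. The log2 differences were 0.17 (SE 0.14, limma adjusted p = 0.698) and 0.15 (SE 0.17, adjusted p = 0.944). MAVS, the mitochondrial adaptor, had 248.0 and 238.7 after miR-483-5p, 206.5 and 248.4 in the control, and 329.8 after miR-483-3p, the only array that stood apart. Against the control this was a log2 difference of 0.48 (SE 0.18), with an adjusted p of 0.728. The other 3 MAVS probe sets gave 0.33, 0.23 and 0.07 in that comparison.

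Of the 4 transcription factor genes none had an unadjusted p under 0.05 against the control (10.7% and 6.56% of all genes), with a median log2 difference of -0.143 after miR-483-5p and -0.109 after miR-483-3p. IRF3, which is activated by phosphorylation and present before infection, had 256.8 and 251.8 after miR-483-5p, 232.6 and 278.1 in the control and 253.2 after miR-483-3p. Its control arrays thus enclosed the other 3. IRF1, an interferon induced factor, had 168.6 and 180.0, then 192.9 and 190.2, then 156.7, with both controls highest. Its dim second probe set gave 46.2 and 13.7, then 14.9 and 9.8, then 50.8, with 1 miR-483-5p array and the miR-483-3p array highest and the other 3 under the filter signal. IRF9, the DNA-binding subunit that joins the STAT proteins, had 141.5 and 123.8, then 165.3 and 160.1, then 136.1. Here too both controls were highest, also in the probe set shared with RNF31 (65.1 and 89.0, then 103.5 and 106.7, then 83.9), and the log2 differences of the IRF9 probe set were -0.24 (adjusted p = 0.593) and -0.21 (adjusted p = 0.908). IRF7, the amplifier of interferon induction, lay between 101.3 and 133.1 in all arrays.

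After miR-483-5p, the set's median lay beside that of all genes. Of 36 genes tested, 15 were higher and 21 lower than in the control, and their median log2 difference was -0.022, beside -0.008 over all 14591 genes tested. None of the 36 passed limma's moderated test with an adjusted p under 0.05, and neither did any other gene (0.0%). At an unadjusted p under 0.05 there were 5 of the 36 (13.9%), against 10.7% of all genes, 2 higher (5.3% of all genes) and 3 lower (5.41%). IFI44L, among the 3 lower, passed the filter only through the control and miR-483-3p arrays. With each array centred on its median, all genes split into 890 higher and 579 lower at that p, where 773 and 790 are given here, and the set into 18 genes above and 18 below the control. Leaving out 1 array gave 3 or 4, with 3 left without the first miR-483-5p array and without either control array. The arrays of both groups did not overlap for 18 genes, against 42.5% of all genes, 7 higher (20.3% of all genes) and 11 lower (22.2%). On the log2(signal + 32) scale, the 95% interval of the difference lay within 1 either way for 35 of the 36, PSMB9 excepted. That scale understates changes of dim genes, so a 2-fold change in signal is not excluded for them. IFI44L, counted as within, had mean signals of 18.8 after miR-483-5p and 44.3 in the control. The GAPDH 3' to 5' signal ratio, a sign of RNA integrity, was 1.09 and 1.10 after miR-483-5p, 1.02 and 0.996 in the control and 1.06 after miR-483-3p. That of ACTB was 1.18 and 1.07, then 1.07 and 1.04, then 1.09, highest in the first miR-483-5p array. The part of RNA integrity in the differences was not tested.

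The genes of the ISG15 system lay on both sides of the control. ISG15, a ubiquitin-like modifier, had signals of 933.9 and 749.8 after miR-483-5p, 1210.9 and 1079.2 in the control and 1002.5 after miR-483-3p. All 3 mimic arrays lay below both controls, and the log2 difference for miR-483-5p was -0.44 (SE 0.16, adjusted p = 0.425). Without the second miR-483-5p array it was -0.28. USP18, the protease that removes ISG15 and dampens interferon receptor signalling, lay on the other side, at 185.0 and 190.5 after miR-483-5p, 132.5 and 124.2 in the control and 190.7 after miR-483-3p. The 3 mimic arrays were close to each other and all above the controls. Its log2 difference was 0.46 (SE 0.14, adjusted p = 0.376) for miR-483-5p and 0.47 (SE 0.17, adjusted p = 0.693) for miR-483-3p. HERC5, the ligase that attaches ISG15, had 202.0 and 190.9, then 131.5 and 174.7, then 198.6, again with both controls lowest. Its log2 difference after miR-483-5p was 0.31 (adjusted p = 0.553), which became 0.14 when the first control array was dropped and 0.48 when its repeat was.

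IFI44 and IFI44L, neighbouring interferon induced paralogs, differed from the control in opposite directions after miR-483-5p. IFI44 had 822.2 and 827.6 after miR-483-5p, 561.2 and 665.5 in the control and 839.3 after miR-483-3p. Its second probe set ran alike, at 135.8 and 141.2, then 96.0 and 43.3, then 122.3. In both probe sets every mimic array was above both controls, although the control pair of the dimmer one was far apart. The log2 differences of the brighter one were 0.41 (SE 0.15, adjusted p = 0.417) and 0.44 (SE 0.18, adjusted p = 0.759). IFI44L had 21.5 and 16.0 after miR-483-5p, under the filter signal in both arrays, against 37.3 and 51.4 in the control and 44.8 after miR-483-3p. Only the miR-483-5p arrays were low. IFI44L passed the filter through the control and miR-483-3p arrays, so its being tested rests on the groups where it was high. The log2 difference was -0.59 (SE 0.16, adjusted p = 0.344), and its size depended on the value added before the logarithm, at -1.20 with 1 and -0.28 with 100.

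Of 6 genes for membrane effectors and antiviral GTPases, which act on viral entry, replication or release, 1 had an unadjusted p under 0.05 after miR-483-5p, against 10.7% of all genes, which is too few to set the group apart. IFITM1 had signals of 389.2 and 438.7 after miR-483-5p, 536.6 and 594.8 in the control and 482.8 after miR-483-3p. The control arrays were highest, and the log2 difference for miR-483-5p was -0.42 (SE 0.15, adjusted p = 0.409). The probe set that IFITM1 shares with IFITM2 did not run alike, at 263.2 and 349.7, then 268.4 and 277.7, then 290.6. IFITM2, a close paralog, had 570.7 and 549.0, then 628.5 and 671.4, then 628.3 in its own probe set, a log2 difference of -0.20 after miR-483-5p (adjusted p = 0.640). IFITM3 had 1111.5 and 1447.7, then 1096.4 and 1639.3, then 1212.5, and its pairs of arrays differed more than its groups. The 3 paralogs are alike in sequence and probe sets of the _x_at kind can bind more than 1 of them, so their signals are not fully separate. BST2 (tetherin) ranged from 465.4 to 645.0, and the GTPase genes MX1 and MX2 from 48.9 to 76.4 and from 345.9 to 466.1, each with overlapping miR-483-5p and control arrays.

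**Figure D2:**
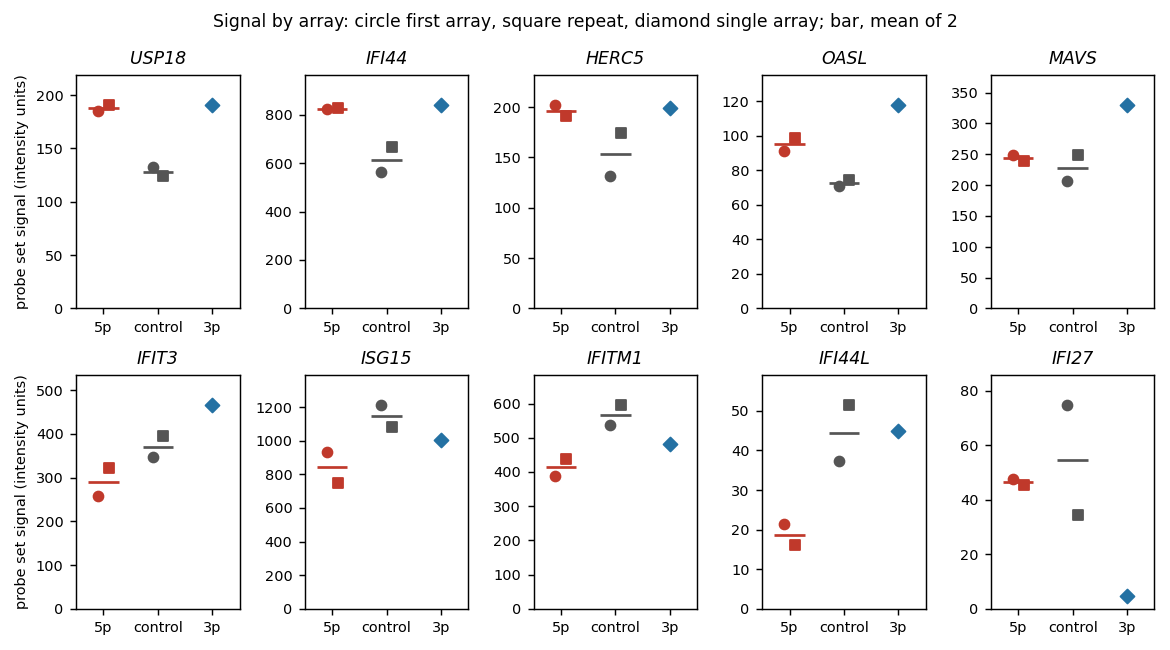
Signal of 10 genes in each array on linear axes from 0, with a bar at the mean of each pair. USP18, IFI44, HERC5 and OASL have all mimic arrays above both controls, and ISG15 and IFITM1 have them below. The share of all genes arranged so was not counted. Each mimic alone was apart from both controls in 42.5% (miR-483-5p) and 68.8% (miR-483-3p) of all genes. A second OASL probe set, not shown, had the mimic arrays between the controls. IFI44L is low in the miR-483-5p arrays and IFI27 in the single miR-483-3p array.

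The IFIT and OAS genes, which bind or are activated by foreign RNA, gave no member past the unadjusted threshold after miR-483-5p, which 10.7% of all genes passed. Their log2 differences in that comparison ran from -0.32 for IFIT3 to 0.28 for OASL. IFIT3, a partner that stabilises IFIT1, had 258.6 and 323.0 after miR-483-5p, 346.8 and 394.2 in the control and 465.3 after miR-483-3p. The array groups were separate, but in a second IFIT3 probe set, at 230.8 and 258.3, then 249.0 and 248.3, then 285.0, only the miR-483-3p array stood apart. OAS1, a 2'-5' oligoadenylate synthetase, had 419.2 and 413.5, then 458.4 and 496.0, then 423.9, with both controls highest. Its second probe set had the controls above miR-483-5p but below the miR-483-3p array, at 104.9 and 100.6, then 125.1 and 116.8, then 159.1. IFIT1, which binds the ends of foreign RNA, ranged from 243.6 to 338.4, IFIT2 from 152.8 to 209.1, IFIT5 from 178.1 to 224.3, OAS2 from 57.8 to 77.3 and OAS3 from 274.2 to 338.8.

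Of 7 other induced genes, IFI44 and IFI44L had an unadjusted p under 0.05 after miR-483-5p in limma's test (28.6%), beside 10.7% of all genes. IFI44L was tested only through the groups where it was high. Of 3 antigen processing genes tested, none had such a p (0.0%). These are too few genes to set either group apart. IFI6, an inhibitor of apoptosis, had 265.6 and 249.4 after miR-483-5p, 276.4 and 352.9 in the control and 242.4 after miR-483-3p, both controls being highest (log2 difference -0.25 for miR-483-5p, adjusted p = 0.628). With either control array left out in turn, that difference was -0.41 (first) or -0.09 (repeat). PARP9, a partner in ADP-ribosylation, ranged from 125.1 to 169.9, with a second probe set in which the miR-483-5p arrays were above instead of below the controls (log2 difference 0.27 beside -0.18). IFI35 ranged from 62.5 to 103.6 and SAMD9 from 42.2 to 55.3. B2M, the constant chain of class I molecules, had 6740.7 and 7069.2, then 6258.8 and 7702.8, then 6746.8, and its control arrays enclosed the other 3 here and in the second bright probe set. The remaining, dim B2M probe set ranged from 12.1 to 35.7. TAP1, a subunit of the peptide transporter, had 74.8 and 101.4, then 76.2 and 78.7, then 65.4. The immunoproteasome subunit genes were dim and uneven, PSMB9 at 37.9 and 34.2, then 4.2 and 41.3, then 39.9, and PSMB8, the 1 gene that did not pass the filter, at 78.7 and 16.1, then 6.5 and 27.8, then 5.9. The control pair of PSMB9 and both pairs of PSMB8 had arrays on either side of the filter signal.

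The miR-483-3p comparison rests on 1 array, assumed to vary like the others, and its set median also lay beside that of all genes. It shares its control arrays with the comparison above, so they are not independent. Of the 36 genes 19 were higher and 17 lower, with a median log2 difference of 0.018, beside -0.001 over all genes tested. None passed limma's test after adjustment, as for all genes (0.0%). At an unadjusted p under 0.05 there were 5 (13.9%), against 6.56% of all genes, 4 higher (2.51% of all genes) and 1 lower (4.05%). Without the first control array 1 gene was left, and with the mean of each gene's probe sets 3. The miR-483-3p array lay outside both controls for 24 genes, against 68.8% of all genes, 12 higher (33.4% of all genes) and 12 lower (35.4%).

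The 4 higher genes were OASL, USP18, MAVS and IFI44, and IFI27 was the lower one. OASL, an OAS-like protein that enhances RNA sensing, had 117.7 after miR-483-3p, 71.1 and 74.4 in the control and 91.1 and 98.7 after miR-483-5p. Its log2 difference was 0.52 (SE 0.17, adjusted p = 0.670), but a second OASL probe set, at 87.9 against 67.8 and 97.5, gave 0.08. IFI27, a mitochondrial protein gene that is a sensitive marker of interferon, had 4.6 after miR-483-3p, 74.7 and 34.4 in the control and 47.7 and 45.6 after miR-483-5p. The control arrays differed by 0.68 on the log2 scale. Its log2 difference from the control was -1.20 (SE 0.28, adjusted p = 0.512), the largest of the 36 in that comparison, and it ran from -3.21 with a pseudocount of 1 to -0.55 with 100. A signal of 4.6 lies under the filter, with no known distance from background. IFI27 passed the filter through the control and miR-483-5p arrays, so its being tested rests on the groups where it was high.

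Set directly against each other, the arms differed at an unadjusted p under 0.05 in 3 of the 36 genes (8.33%), against 6.65% of all genes, 1 higher after miR-483-5p (3.41% of all genes) and 2 lower (3.24%), and in none after adjustment by limma (0.0% of all genes). IFI27 was higher after miR-483-5p than after miR-483-3p by 1.10 on the log2 scale (SE 0.28, adjusted p = 0.589), IFIT3 lower by a log2 difference of -0.63 (SE 0.20, adjusted p = 0.667) and IFI44L by -0.60 (SE 0.20, adjusted p = 0.673). IFI27 and IFI44L had each passed the filter through the groups where they were high. The miR-483-3p array lay outside both miR-483-5p arrays for 26 genes, against 67.9% of all genes, of which 9 were higher after miR-483-5p (34.4% of all genes) and 17 lower (33.5%). For USP18 and IFI44, which both mimics had above the control, the arms differed by -0.02 each, with 95% intervals of -0.42 to 0.38 and -0.46 to 0.41. Of the 9 IFIT, OAS and EIF2AK2 genes, 8 were lower after miR-483-5p than after miR-483-3p, with a median of -0.165. IFIT3 alone of them had an unadjusted p under 0.05. EIF2AK2, OAS1 and IFIT5 differed by only -0.01, -0.02 and -0.03. Of all 14591 genes 7270 were lower in that comparison, which rests on the single miR-483-3p array.

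**Figure D3:**
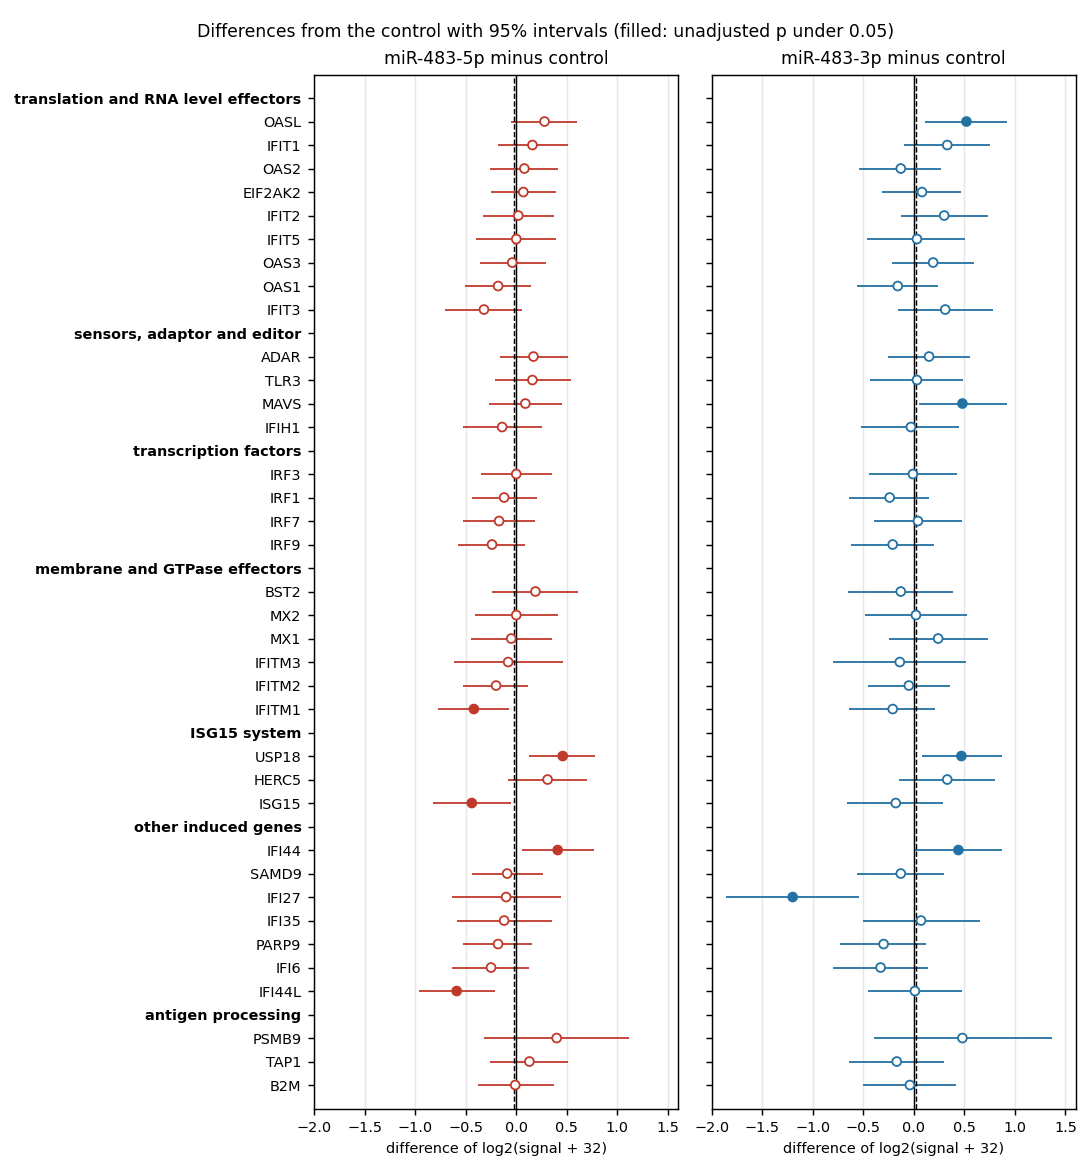
Difference from the control for the 36 genes tested, on the log2(signal + 32) scale, with 95% intervals from limma, miR-483-5p at left and the single miR-483-3p array at right. Filled points have an unadjusted p under 0.05, and dashed lines at the set medians of -0.022 and 0.018 lie beside 0.

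The control arrays differed from each other more than miR-483-5p did from the control for 18 of the 36 genes (50.0%), a share near the 51.5% of all genes tested. The first control array was lower than its repeat in 26 of the 36 genes (72.2%), against 50.1% of all genes, with a median of -0.15 beside 0.00 for all genes. In the miR-483-5p pair 20 of 36 were lower in the first array, with a median of -0.01. PSMB9, IFITM3, BST2, MX2 and MX1 differed most in that direction within the control pair, by -1.02, -0.57, -0.43, -0.40 and -0.37. IFI27 differed most in the other direction, by 0.68. Within the miR-483-5p pair 5 of the 36 genes differed by more than 0.3 either way (26.0% of all genes), and within the control pair 9 (22.6%). With the first control array left out, the set's median was -0.095 for miR-483-5p and -0.097 for miR-483-3p. With its repeat left out, these were 0.086 and 0.108.

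**Figure D4:**
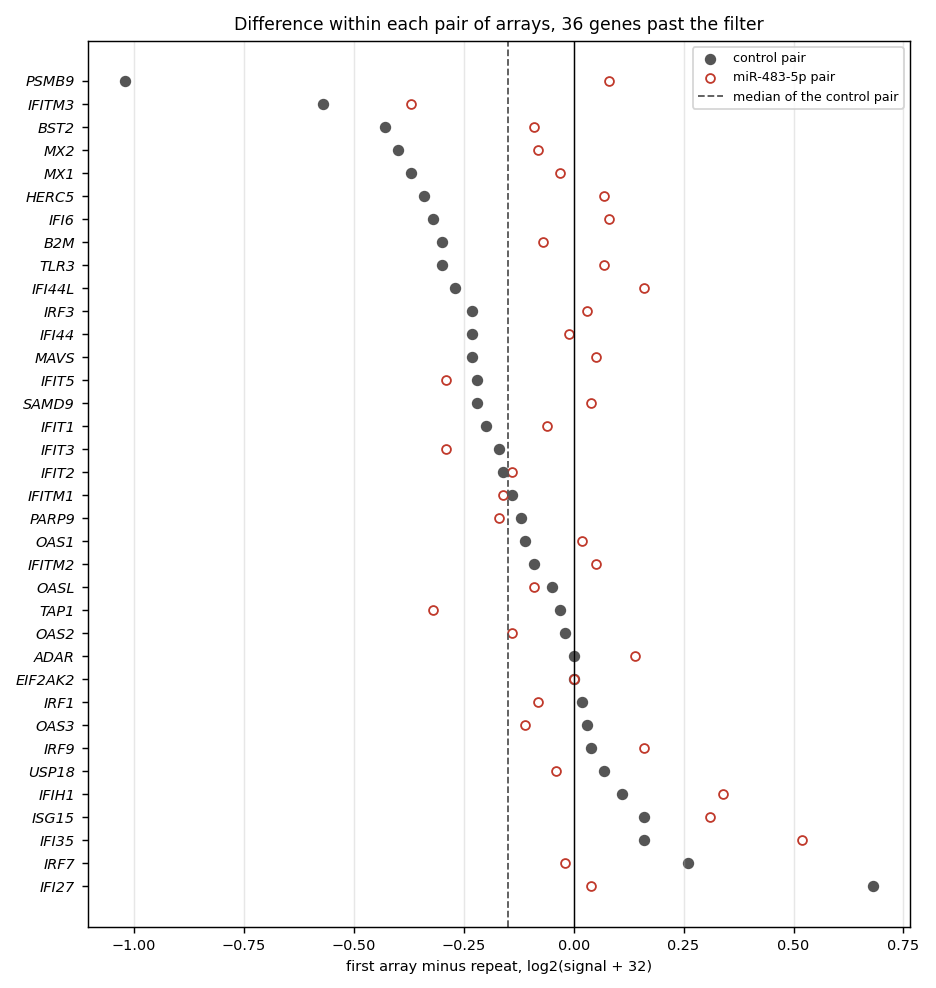
First array minus its repeat on the log2(signal + 32) scale for each of the 36 genes, filled grey for the control pair and open red for the miR-483-5p pair. The control points lean to the left of 0, around a median of -0.15, from -1.02 for PSMB9 to 0.68 for IFI27.

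A wider list of 111 interferon and sensing genes outside the set, of which 91 were tested, was counted in the same way. After miR-483-5p 5 were higher and 4 lower at an unadjusted p under 0.05, 9.89% of the list against 10.7% of all genes, with a median of 0.002. After miR-483-3p 2 were higher and 4 lower, 6.59% against 6.56%, with a median of 0.006. None passed after adjustment by limma in either. The interferon gene IFNB1 was under the filter signal in all arrays, between 3.3 and 6.2, as was IFNA1 in its own probe set, between 3.2 and 7.6. A probe set shared by IFNA1 and IFNA13 gave 11.0 and 27.0 after miR-483-5p, 31.4 and 99.7 in the control and 50.2 after miR-483-3p. IFNE lay above the filter signal in all arrays, between 28.5 and 35.6. RIGI, the sensor of RNA with triphosphate ends, had 138.2 and 164.7 after miR-483-5p, 139.9 and 187.1 in the control and 146.8 after miR-483-3p, and the controls enclosed the rest except the first miR-483-5p array.

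Single genes of that list are given as values. NLRC5, the activator of class I genes, had the lowest log2 difference after miR-483-5p at -0.80 (adjusted p = 0.332), with 15.2 and 29.5 against 62.6 and 61.0 in the control and 56.5 after miR-483-3p. PSMB10, another immunoproteasome subunit gene, had 65.1 and 56.0 against 102.8 and 85.3, and 61.2 after miR-483-3p. SP100, a nuclear body protein gene, had 105.2 and 110.7 against 174.5 and 134.3, although its dimmer probe sets gave log2 differences of -0.07 to 0.07. In each of these, picked for their low differences, the miR-483-5p arrays were both lower than the controls, as in 22.2% of all genes. NLRC5 passed the filter mainly through the control and miR-483-3p arrays. The highest were IFI16, a DNA sensor, at 1448.1 and 1372.3 against 1136.6 and 927.1 (0.19 and -0.08 in 2 other probe sets), the chemokine gene CXCL9 at 61.0 and 72.1 against 30.7 and 52.1, and CIITA, the class II activator, at 88.5 and 98.1 against 62.6 and 65.8.

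After miR-483-3p the lowest was DICER1, which cuts microRNA precursors, at 113.8 against 206.4 and 165.2 in the control, and its other 2 probe sets past the filter gave -0.90 and -0.56 beside -0.57. TYK2, a kinase of the interferon receptor, had 170.9 against 262.9 and 253.2, with 301.5 and 327.8 in the miR-483-5p arrays on the other side of the control. The chemokine gene CCL5 had 17.8 against 42.4 and 37.0. All 3, picked for their low differences, were below both controls, as were 35.4% of all genes. CCL5 lay under the filter signal after miR-483-3p and passed the filter through other arrays, so its being tested rests on those where it was higher. IFNL1, a type III interferon gene, was higher at 120.8 against 78.1 and 64.5, and SAMHD1, a nucleotide hydrolase, at 125.5 against 79.1 and 85.0, although its other 3 probe sets past the filter gave -0.11 to -0.03. The adjusted p-values of these 5 genes were 0.670 to 0.720.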

How the data were processed

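Members and lists were chosen with earlier results of these data known. Per the labels, signals come from Affymetrix 3' arrays. Each deposited value is the intensity of 1 probe set on a linear scale. GCOS and Partek are the tools in the submitters' processing notes, and how the signal was summarised is not given in them. With 2% trimmed from either end, the mean intensity of each deposited column is 150. Probe sets were named from the platform annotation, updated through gene identifiers (GRCh38.p14). Each gene was represented by its brightest probe set on the mean log2 scale, and genes under the 40th percentile were left out. Log2(signal + 32) was fitted with limma 3.58.1 in R 4.3.3 as a mean per group over 5 arrays (2 residual and 4.96 prior degrees of freedom), two-sided, with Benjamini-Hochberg adjustment over 14591 genes. Fold changes on this scale understate dim genes. Named in full were the sensors, members with an unadjusted p under 0.05 in any comparison and the 2 brightest of each role, and of the wider list the 3 highest and 3 lowest past that p for each mimic. In simulated miR-483-5p and control arrays 200 of 14591 genes were altered, by 2-fold or 4-fold on the log2(signal + 32) scale. Of these changes 55.9% (2-fold) and 97.8% (4-fold) were recovered, with 8 false calls on average. The simulated noise was independent and drawn from limma's own fitted spread, so these shares do not measure the power in the real arrays. An exact permutation test of 2 arrays against 2 cannot go below p = 0.333 and was not used. Protein identity between paralogs was not analysed here. Few arrays limit the precision.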

Additional observations from a re-analysis of the deposited data

How the results depend on the processing

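No member passed an adjusted p of 0.05 in any comparison under any of the 14 alternatives run. The counts of members at an unadjusted p under 0.05 stayed within 1.5 times the reported value except under averaged probe sets and when 1 array was left out. For miR-483-3p the count of 5 became 3 with probe sets averaged per gene. Leaving out 1 array gave 1 to 4 for miR-483-3p, 3 to 4 instead of 5 for miR-483-5p, and 2 to 3 between the arms. Set medians without 1 array were -0.095 to 0.086 for miR-483-5p, -0.097 to 0.108 for miR-483-3p and -0.033 to -0.022 between the arms. Under the other settings they were -0.039 to 0.013, 0.008 to 0.055 and -0.070 to -0.018 in that order. Median centring gave 18 higher and 18 lower members for miR-483-5p, where 15 and 21 are reported, and over all genes 890 higher and 579 lower calls at an unadjusted p under 0.05, where 773 and 790 are reported. Over all genes, adjusted calls for miR-483-5p numbered 37 with median centring, 33 with a pseudocount of 100, 39 with a prior that follows intensity and 1 with the 60th percentile filter, where 0 are reported. For miR-483-3p the first 3 of these gave 2, 1 and 1, and between the arms median centring gave 7. A replicate block for first arrays against repeats, whose numbers the labels do not give as pairing, left the counts at 5, 5 and 3 and the medians at -0.022, 0.047 and -0.070. Of the members past the unadjusted threshold, none changed sign. ISG15 after miR-483-5p lost that threshold with median centring and with a pseudocount of 1. IFI44 after miR-483-3p lost that threshold under 6 of 14 alternatives and IFI27 under none of the 13 that kept it, a 60th percentile filter leaving out IFI27 and IFI44L. SAMHD1 changed sign between the arms, to 0.09 with the mean of its probe sets. The 4.6 of IFI27 and the signals of IFI44L with miR-483-5p lie where distance from background is unknown.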
